A study of Homo sapiens with 32 samples.

Results

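The genes described here are 10 major heterogeneous nuclear ribonucleoproteins (hnRNPs): HNRNPA1, HNRNPA2B1, HNRNPC, HNRNPD, HNRNPH1, HNRNPK, HNRNPL, HNRNPM, HNRNPU and HNRNPR. They were chosen by name, with earlier results of these data known. Their transcripts were found by RefSeq identifier without its version, which gave 34 transcripts of 42587 matched to a gene, for 10 genes of 18858. They were measured in 32 RNA-seq libraries of 4 established cell lines. A375 comes from a melanoma, DLD1 from a colorectal carcinoma, and Cal51 and MDA-MB-231 from breast carcinomas. Within each labelled line, 4 groups of 2 libraries were made: G579S cells given OTS964 at 100 nM for 6 h, wild-type cells given the same, and G579S cells and wild-type cells given the solvent DMSO, counted as 0 nM. The series' design describes G579S cells as resistant to inhibition of the kinase CDK11 and wild-type cells as sensitive to it, and OTS964 is a small-molecule CDK11 inhibitor. The labels do not say whether the G579S cells of a line are 1 clone, or whether the 2 libraries of a group come from separate cultures, so p-values rest on a spread between samples that may be only technical.

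As background, hnRNPs are abundant nuclear proteins that coat nascent transcripts and steer splice site choice, mRNA export and decay. Most bind short sequence signals through RRM, quasi-RRM or KH domains. Many of them also bind the transcripts of their own genes and of one another. Many hnRNP genes are themselves spliced in several ways. CDK11 is a kinase of the transcription and splicing machinery. The comparisons ask how the level of these genes and the split of their reads over transcripts differed between OTS964 and DMSO in each genotype.

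The exon segments that separate the RefSeq transcripts of the members were read from GENCODE 29 on GRCh38, and the 4 below are shown because their share moved with OTS964. HNRNPD, which binds AU-rich elements and is tied to mRNA decay, has an early cassette exon of 57 bases (exon 2, chr4:82371528-82371584, minus strand) and a late one of 147 bases (exon 7, chr4:82356537-82356683, minus strand). HNRNPM, a splicing factor that binds GU-rich RNA, has a stretch of 117 bases inside exon 6 (chr19:8465363-8465479, plus strand) that 1 of its transcripts lacks; it begins with GT and ends with AG. HNRNPR, a relative of SYNCRIP, has 9 bases at the 5′ end of exon 8 (chr1:23318689-23318697, minus strand) that only some transcripts hold. All 4 lengths are multiples of 3. The segment is in capitals, read 5′ to 3′ along the transcript, and 15 bases of the spliced transcript on either side are in lower case.
HNRNPD early cassette exon: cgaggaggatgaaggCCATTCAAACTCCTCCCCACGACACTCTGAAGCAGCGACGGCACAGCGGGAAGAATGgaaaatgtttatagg
HNRNPD late cassette exon: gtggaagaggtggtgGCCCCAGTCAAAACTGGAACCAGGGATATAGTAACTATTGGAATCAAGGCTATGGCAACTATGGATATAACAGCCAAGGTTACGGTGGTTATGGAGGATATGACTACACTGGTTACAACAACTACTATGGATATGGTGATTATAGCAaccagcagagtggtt
HNRNPM removable segment: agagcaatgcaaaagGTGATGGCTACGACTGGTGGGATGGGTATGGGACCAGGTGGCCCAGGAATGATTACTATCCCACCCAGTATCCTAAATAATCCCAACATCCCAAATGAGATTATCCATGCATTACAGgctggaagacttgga
HNRNPR exon extension: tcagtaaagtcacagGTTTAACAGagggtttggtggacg

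A library held between 16091376 and 29742687 estimated reads, of which 85.62% to 89.37% lay on matched transcripts. The members took 0.539% to 1.115% of the matched reads in wild-type OTS964 libraries, against 0.580% to 0.898% in wild-type DMSO libraries, and 0.637% to 0.868% in G579S OTS964 libraries, against 0.585% to 0.713% in G579S DMSO libraries. Most predicted transcripts were unmatched and could hold reads of the members, and predicted transcripts took 8.966% to 9.457% of all reads in wild-type OTS964 libraries, against 11.379% to 12.474% in wild-type DMSO libraries. The part of this in the results was not tested. No library was identical to another. Replicates differed most in the Cal51 G579S DMSO, MDA-MB-231 wild-type OTS964 and DLD1 wild-type OTS964 groups, with chi-square values per degree of freedom of 87, 85.7 and 47.8, against 5.68 to 25.4 in the other groups. CDK11B, a gene for the kinase CDK11, stood apart in MDA-MB-231 G579S cells. Under DMSO it had 526.5 ± 31.5 TPM there, against 43.9 ± 2.2 TPM in MDA-MB-231 wild-type cells (SD, n = 2 each). The G579S means were 34.3 ± 0.5 TPM in A375, 23.8 ± 10.9 TPM in Cal51 and 36.0 ± 3.0 TPM in DLD1. The wild-type means were 33.2 ± 0.4, 37.4 ± 0.7 and 35.15 ± 0.26 TPM (SD, n = 2 each). Its part in the responses was not tested. The libraries labelled DLD1 wild-type went against their label. Their 8 colorectal markers summed to 24.9 to 46.7 TPM, against 1089 to 1256 TPM in DLD1 G579S libraries. Their 8 melanocyte markers summed to 911.5 to 1089 TPM, but only 4 of the 8 reached a mean of 1 TPM, under DMSO and with OTS964. TYR and DCT were listed at 0 in all of these libraries, and MLANA in those under DMSO. A375 wild-type cells also had 4 of the 8 at 1 TPM. The melanocyte factor SOX10 stood at 425.8 ± 20.9 TPM under DMSO in the libraries labelled DLD1 wild-type, against 0.813 ± 0.293 TPM in DLD1 G579S cells (SD, n = 2 each). Under DMSO the mesenchymal marker VIM averaged 2902 TPM with the DLD1 wild-type label and 7.12 TPM in DLD1 G579S cells. A375 wild-type cells under DMSO averaged 347.6 TPM of SOX10 and 2727 TPM of VIM, but their colorectal markers summed to 0.157 to 0.260 TPM. Whether the libraries labelled DLD1 wild-type hold A375 cells was not tested, so the 4 labelled wild-type lines may not be 4 separate lines. These libraries are called by their label. Without them the wild-type response across lines kept 9 of the 10 genes as called, with log2 fold changes of 0.29 for HNRNPU to 1.04 for HNRNPA1 among these 9, and the other results across lines that changed without libraries labelled DLD1 are given beside them.

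Under DMSO, HNRNPA1, which represses splicing from silencer elements, had the highest level in all 16 libraries, with 1471, 1573 and 2216 TPM (lowest, median and highest). TPM are reads per transcript length, scaled to the library total, so they compare genes. HNRNPL, which binds CA repeats, came next with 434, 521 and 667 TPM and lay above HNRNPM in all 16 libraries. HNRNPR was lowest, at 133, 201 and 256 TPM. Between them the medians stood at 458 TPM for HNRNPM, 370.1 TPM for HNRNPK, 346 TPM for HNRNPC, 330.1 TPM for HNRNPD, 272 TPM for HNRNPH1, 238 TPM for HNRNPU and 224 TPM for HNRNPA2B1. Neighbours in this order were not separated in every library: HNRNPC exceeded HNRNPD in 9 of 16, HNRNPA2B1 exceeded HNRNPR in 11 of 16, and the other pairs kept their order in 13 or 14 of 16.

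**Figure D1:**
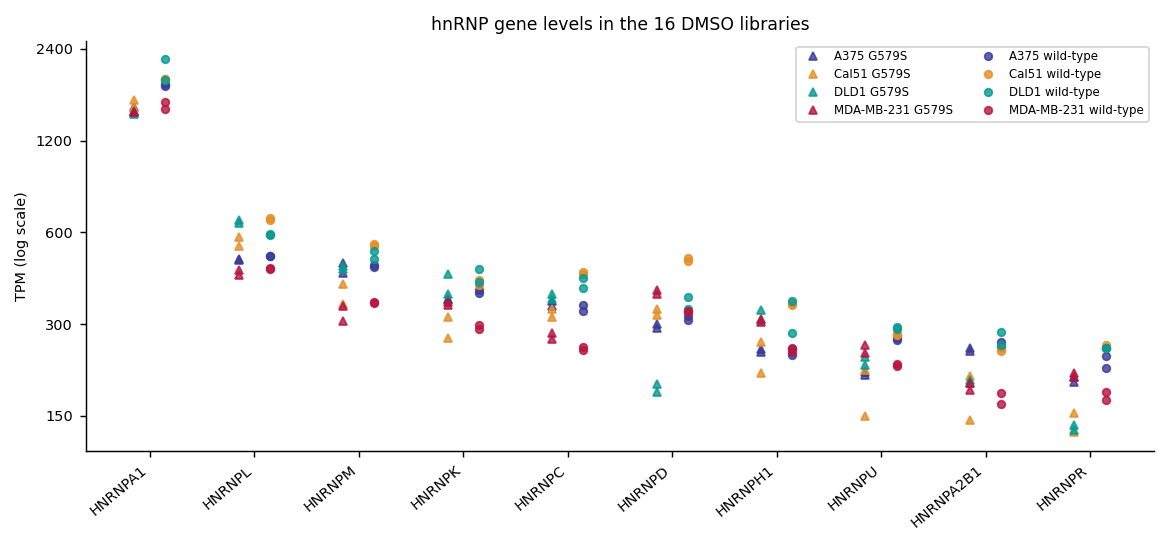
Level of each hnRNP gene in TPM (log axis) in the 16 DMSO libraries, 1 point per library, coloured by labelled line with triangles for G579S and circles for wild-type cells. HNRNPA1 lies above every other gene in all 16 libraries, and HNRNPD spans the widest range of groups, from 185 TPM in DLD1 G579S cells to 490 TPM in Cal51 wild-type cells.

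Across the 8 DMSO groups, HNRNPD varied most, between 489.9 ± 7.6 TPM in Cal51 wild-type cells and 184.9 ± 7.6 TPM in DLD1 G579S cells (SD, n = 2 each), a ratio of 2.65. For HNRNPA1 the corresponding ratio of highest to lowest group was 1.39, and for the other 8 genes it lay between 1.48 and 1.84. The highest group was Cal51 wild-type for 6 genes and the one labelled DLD1 wild-type for 4. In the order of the 8 groups, ranges of neighbouring groups overlapped in 1 of 7 neighbour pairs for HNRNPD and for HNRNPL, and in 5 of 7 for HNRNPA2B1 and HNRNPH1.

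In wild-type cells, 9 of the 10 genes rose with OTS964 and none fell (edgeR quasi-likelihood F test, Benjamini-Hochberg adjusted p under 0.05, 8 against 8 libraries with the line as a block), and DESeq2 also called 9. Of all 14319 genes tested, 59.1% were called, 28.4% higher and 30.7% lower. The median log2 fold change was 0.89 over the 10 genes and -0.07 over all genes tested. These values use TMM scaling, which sets the bulk of the genes level between libraries. Scaling by library totals moves the median of all genes by -0.58 to -0.65, so that 21.9% rather than 48.1% of the genes called are called higher, and then 6 of the 10 genes are called higher and 2 lower. The median of the 10 genes lies 0.96 above that of all genes with TMM and 0.95 above it with library totals. Levels below are counts per 1000000 reads (CPM), scaled by TMM. Bulk RNA cannot tell more RNA per cell from more cells with that RNA.

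HNRNPA1 and HNRNPA2B1, closely related proteins with a glycine-rich tail, both rose. HNRNPA1 stood at 2064, 3932 and 5125 CPM (lowest, median and highest of 8) in wild-type OTS964 libraries, against 1311, 1731 and 2201.5 CPM in wild-type DMSO libraries. Both OTS964 libraries lay above both DMSO libraries in all 4 labelled lines in CPM. In TPM they overlapped in MDA-MB-231, at 1312.8 and 1698.7 with OTS964, against 1603.2 and 1520.5 with DMSO. The log2 fold change was 1.13 ± 0.10 (SE; edgeR adjusted p = 2.2e-07) and 0.54 with library totals. HNRNPA2B1 had 431, 1029 and 1297 CPM with OTS964, against 321, 523 and 617 CPM with DMSO, again with no overlap within any line in CPM. In TPM its MDA-MB-231 OTS964 libraries lay below their DMSO libraries, at 130.7 and 135.9, against 163.6 and 177.7. Its change was 0.90 ± 0.11 (edgeR adjusted p = 8.1e-06) and 0.30 with library totals. HNRNPA1 shares long stretches with its near-copy HNRNPA1L2, so the split of reads between these 2 genes is uncertain.

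HNRNPC, a nuclear protein that binds uridine tracts and masks cryptic splice sites, rose to a median of 1205 CPM (410.2 to 1480.1) in wild-type OTS964 libraries, against 583 CPM (367 to 687) in wild-type DMSO libraries. The 2 OTS964 libraries labelled MDA-MB-231, at 410.2 and 565 CPM, were the lowest of the 8 but lay above their 2 DMSO libraries, at 367 and 373 CPM. The log2 fold change was 0.97 ± 0.13 (SE; edgeR adjusted p = 1.4e-05). HNRNPD rose by 0.89 ± 0.11 (edgeR adjusted p = 4.5e-06), with 451, 776 and 1082.5 CPM with OTS964, against 358, 402 and 532 CPM with DMSO. Neither gene's groups overlapped within a line in CPM, whereas in TPM the MDA-MB-231 OTS964 libraries lay below their DMSO libraries for both. For HNRNPD the libraries labelled DLD1 wild-type overlapped in TPM, at 347.9 and 451.7 with OTS964, against 335.4 and 368.9 with DMSO. With library totals the log2 fold changes were 0.38 for HNRNPC and 0.30 for HNRNPD.

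HNRNPK, whose KH domains bind C-rich RNA and DNA, HNRNPL and HNRNPM also rose. HNRNPL had 780.2, 1127 and 1452 CPM in wild-type OTS964 libraries, against 443, 589 and 644 CPM in wild-type DMSO libraries, so that no OTS964 library of any line reached down to a DMSO library of any line. Its log2 fold change was 1.03 ± 0.06 (SE; edgeR adjusted p = 7.1e-09), and it lay above DMSO in all 4 lines in TPM as well as in CPM. HNRNPM had 727, 1225 and 1524 CPM with OTS964, against 451, 691 and 764 CPM with DMSO, a change of 0.90 ± 0.07 (edgeR adjusted p = 6.9e-08); in TPM it was lower in MDA-MB-231 OTS964 libraries, at 319 and 351.1, against 353.0 and 353.6. HNRNPK had 599.8, 1015 and 1372 CPM with OTS964, against 443, 643 and 778 CPM with DMSO, a change of 0.70 ± 0.08 (edgeR adjusted p = 1.5e-06). For HNRNPK the rise depended on the scaling, since it was 0.10 with library totals (edgeR adjusted p = 0.10). In TPM its OTS964 libraries lay below DMSO in 2 lines and overlapped with DMSO in the other 2.

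With TMM the 3 remaining genes changed least, and with library totals their values were negative. HNRNPU, a chromatin-associated RNA-binding protein also known as scaffold attachment factor A, rose by 0.32 ± 0.08 (SE; edgeR adjusted p = 0.0021) with TMM but was called lower, at -0.27, with library totals. It stood at 822, 1349.8 and 1617 CPM in wild-type OTS964 libraries, against 828, 1087 and 1248 CPM in wild-type DMSO libraries, and in TPM at a median of 194, against 273, below DMSO in all 4 lines. HNRNPR rose by 0.50 ± 0.07 (edgeR adjusted p = 2.4e-05) with TMM. It had 267, 476 and 559 CPM with OTS964, against 226, 336 and 382 CPM with DMSO. With library totals HNRNPR was at -0.09 and was not called (edgeR adjusted p = 0.16). In TPM its median was 189 with OTS964, against 243 with DMSO, and it lay below DMSO in all 4 lines. HNRNPH1, which binds runs of G, was the only gene of the 10 not called with TMM, with 291, 352 and 473 CPM with OTS964, against 277, 345 and 465 CPM with DMSO. Its change was 0.10 ± 0.07 (edgeR adjusted p = 0.24) with TMM and -0.49 (edgeR adjusted p = 2e-05) with library totals, and its TPM lay below DMSO in all 4 lines. HNRNPH1 and HNRNPH2 encode near-identical proteins, so some of their reads may be split by estimate.

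**Figure D2:**
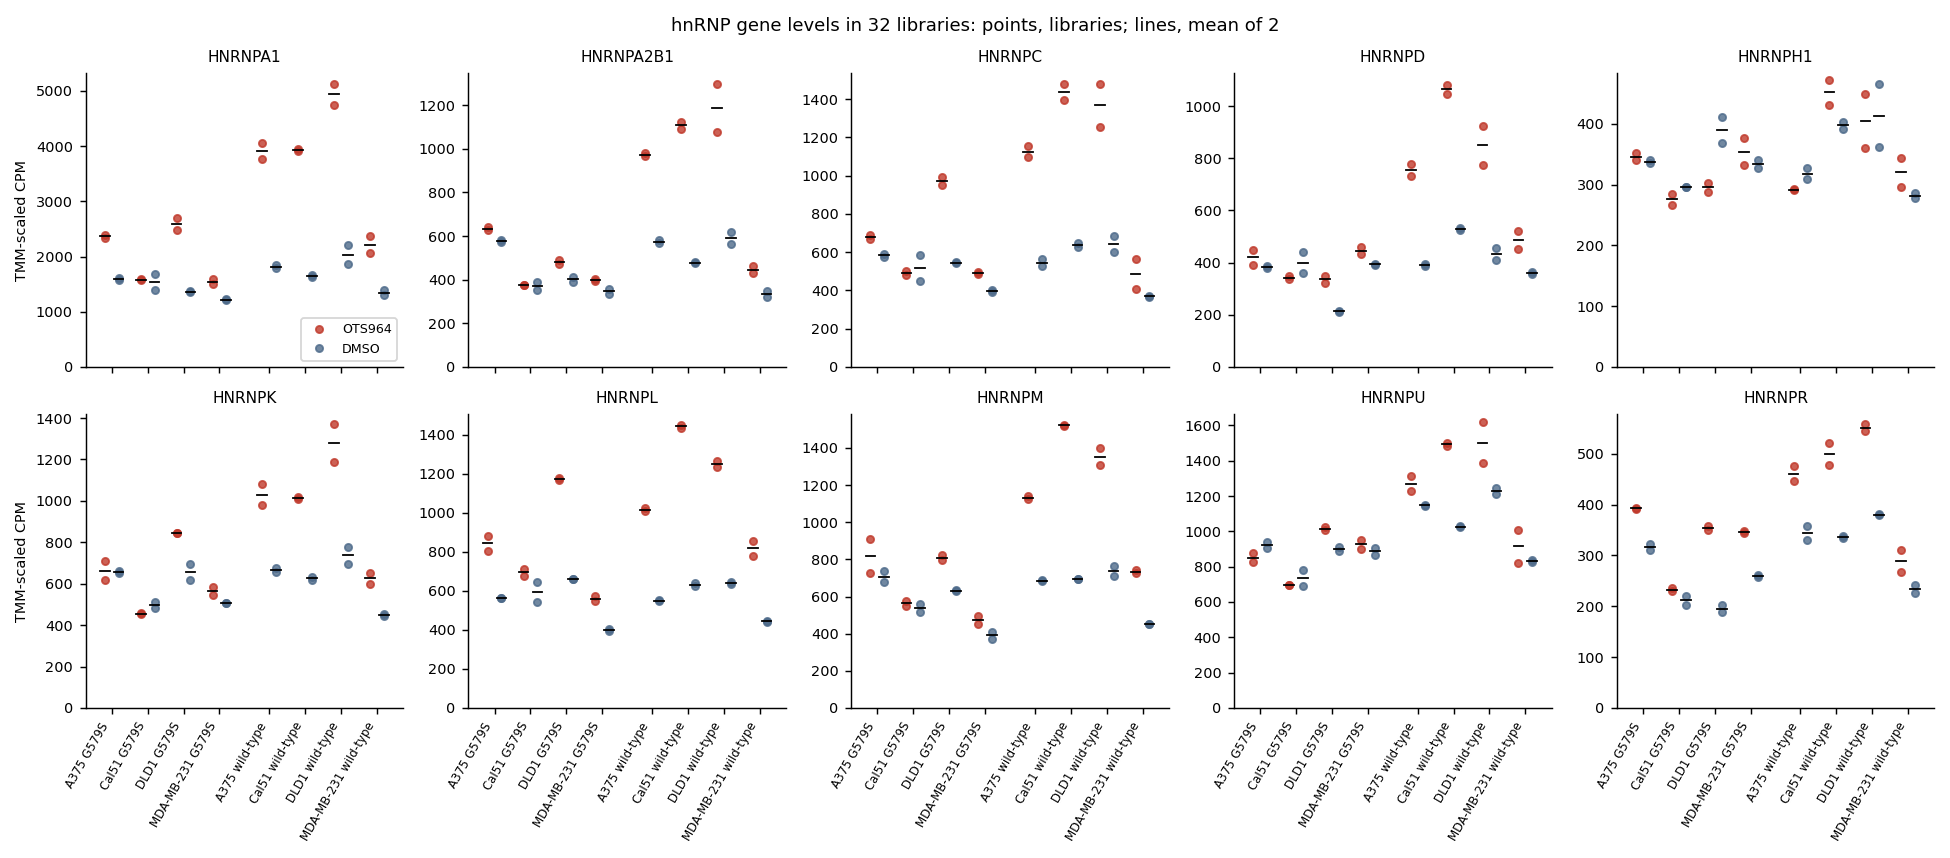
TMM-scaled CPM of each hnRNP gene in all 32 libraries, with OTS964 (red) left of DMSO (blue) in every labelled line and genotype, G579S on the left and wild-type on the right; points are libraries and short lines are means of 2. In wild-type cells HNRNPA1, HNRNPA2B1, HNRNPC, HNRNPD, HNRNPK, HNRNPL, HNRNPM and HNRNPR lie higher with OTS964 in all 4 lines, and HNRNPH1 overlaps or lies close.

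**Figure D3:**
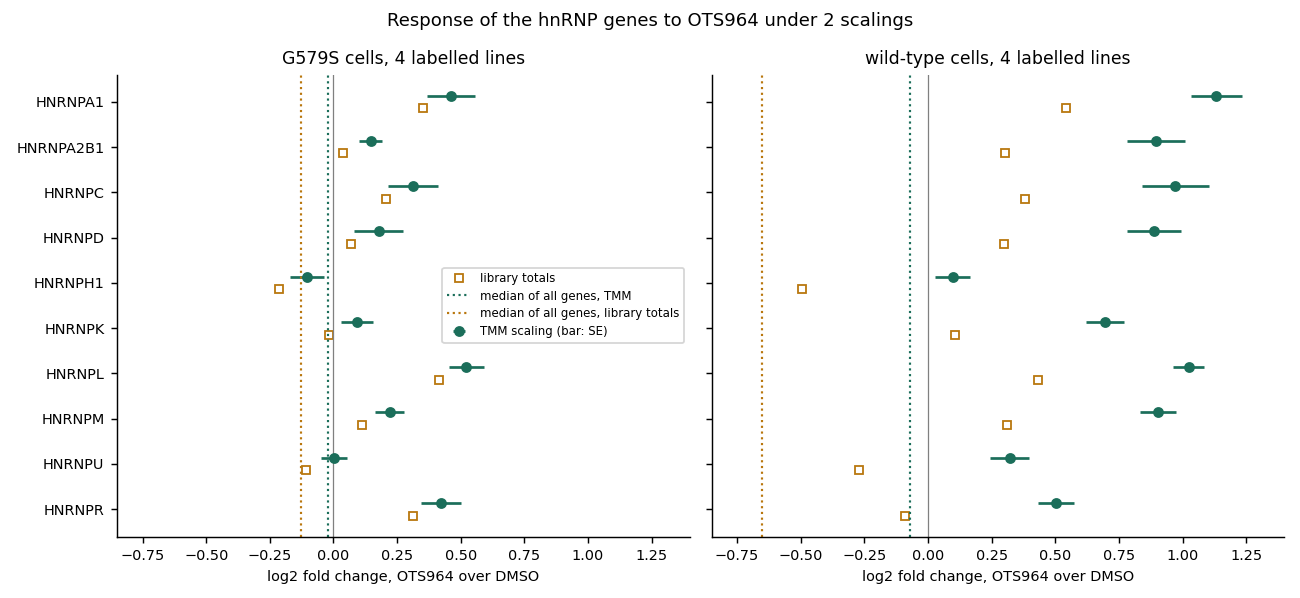
Log2 fold change of each hnRNP gene, OTS964 over DMSO, across the 4 labelled lines, in G579S cells (left) and wild-type cells (right), with TMM scaling (filled circles, bars are SE) and with library totals (open squares); dotted lines mark the median of all 14319 genes under each scaling. In wild-type cells all 10 genes lie right of the median of all genes under both scalings, while HNRNPH1, HNRNPU and HNRNPR change sign between them.

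Within the lines, 8 of the 10 genes rose in A375 wild-type cells (20.8% of all genes were called higher), 9 in Cal51 (24.9%), 9 in the cells labelled DLD1 (22.2%) and 8 in MDA-MB-231 (24.1%), by edgeR with 2 against 2 libraries and 1 spread shared over 16 groups. HNRNPH1 was not called in any of the 4, at -0.12, 0.19, -0.03 and 0.18, and HNRNPU was not called in A375 (0.15) or MDA-MB-231 (0.14). With library totals the calls were 6 higher and 2 lower in A375, 6 and 1 in Cal51, 7 and 2 in DLD1, and 2 and 2 in MDA-MB-231, while 20.4% to 25.5% of all genes called in these lines were higher, against 44.5% to 51.8% with TMM. The median of the 10 log2 fold changes was 0.74 in A375, 1.07 in Cal51, 0.92 in DLD1 and 0.43 in MDA-MB-231; differences between lines were not tested. HNRNPA2B1 lay between 0.42 ± 0.08 in MDA-MB-231 and 1.21 ± 0.08 (SE) in Cal51 and HNRNPC between 0.40 ± 0.12 and 1.17 ± 0.12 in the same lines, whereas HNRNPL lay between 0.88 and 1.19 in all 4 lines. Without replicate 1 of the MDA-MB-231 wild-type OTS964 pair, HNRNPC in that line was at 0.61 instead of 0.40 ± 0.12 and HNRNPU was called, at 0.28 (edgeR adjusted p = 0.011). Without replicate 2 of that group HNRNPC was at 0.15 (edgeR adjusted p = 0.32), and without DMSO replicate 1 it was at 0.39 (edgeR adjusted p = 0.059).

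In G579S cells, 3 of the 10 genes rose with OTS964 across lines and none fell. Of all genes, edgeR called 1.26% higher and 1.35% lower. Among the 10 genes, 6 passed an unadjusted p under 0.05 and DESeq2 called 6. With libraries of the same line and replicate number treated as a pair, edgeR called 0 of the 10 and 0 of all genes. With library totals the same count of 3 was called higher, while the median of all genes moved by -0.11 and 12.1% rather than 48.3% of the genes called were higher. HNRNPL, the first of the 3, had 546, 758 and 1180.2 CPM in G579S OTS964 libraries, against 394, 563 and 662 CPM in G579S DMSO libraries, and lay above DMSO in all 4 lines in CPM and in TPM. Its log2 fold change was 0.52 ± 0.07 (SE; edgeR adjusted p = 0.0041). HNRNPA1 had 1502, 1961 and 2700.1 CPM with OTS964, against 1206, 1388 and 1676 CPM with DMSO, overlapping in Cal51 only, and rose by 0.46 ± 0.10 (edgeR adjusted p = 0.026). That call was lost, at 0.42 to 0.46 (edgeR adjusted p = 0.050 to 0.066), without any 1 of A375 DMSO replicate 1 or 2, A375 OTS964 replicate 1, DLD1 DMSO replicate 1 or 2, or DLD1 OTS964 replicate 2. HNRNPR had 230.1, 349.8 and 394 CPM with OTS964, against 188, 239 and 323 CPM with DMSO, and rose by 0.42 ± 0.08 (edgeR adjusted p = 0.017) with no overlap in any line. HNRNPM, at 0.22, missed the threshold (edgeR adjusted p = 0.052), and the remaining 6 lay between -0.10 and 0.31; HNRNPK and HNRNPU, at 0.09 and 0.00, were at -0.02 and -0.11 with library totals. Without the 4 libraries labelled DLD1 G579S, HNRNPL alone was called, with HNRNPA1 at 0.32 (edgeR adjusted p = 0.17) and HNRNPR at 0.29 (edgeR adjusted p = 0.064). Without Cal51 G579S DMSO replicate 2, 6 genes were called and the calls over all genes numbered 1656 instead of 373.

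The lines behind this pooled value differed in their counts. In DLD1 G579S cells 8 genes rose (10.8% of all genes were called higher) and 1 fell (12.7% lower). The 2 largest rises there were HNRNPA1, with 2700.1 and 2483 CPM with OTS964, against 1352 and 1379 CPM with DMSO, and HNRNPR, with 351 and 359 CPM, against 188 and 203 CPM. Their log2 fold changes were 0.92 ± 0.09 (edgeR adjusted p = 4.2e-07) and 0.86 ± 0.07 (SE; edgeR adjusted p = 1.3e-07). HNRNPH1 fell by 0.40 (edgeR adjusted p = 0.012), with 303 and 288 CPM with OTS964, against 369 and 412 CPM with DMSO. With library totals 5 genes in this line were called higher and 1 lower, and 15.7% rather than 46.1% of all genes called were higher. In A375 G579S cells HNRNPA1 (0.57 ± 0.09) and HNRNPL (0.58 ± 0.07) were called, where 0.384% of all genes were called higher, and in MDA-MB-231 G579S cells HNRNPL (0.48 ± 0.07) and HNRNPR (0.42 ± 0.07), where 0.223% were; with library totals the higher share of the genes called was 23.3% rather than 58.5% in A375 and 24.2% rather than 72.7% in MDA-MB-231. Leaving out either A375 DMSO library left 1 call in A375, and leaving out any one library left at most 1 call in MDA-MB-231. In Cal51 G579S cells edgeR called 0 of the 10, with 0.391% of all genes called; 2 passed an unadjusted p under 0.05 and DESeq2 called 1, HNRNPL. Of the genes called there, 35.7% were higher with TMM and 20.9% with library totals. Leaving out either Cal51 G579S DMSO library gave 1 call.

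**Figure D4:**
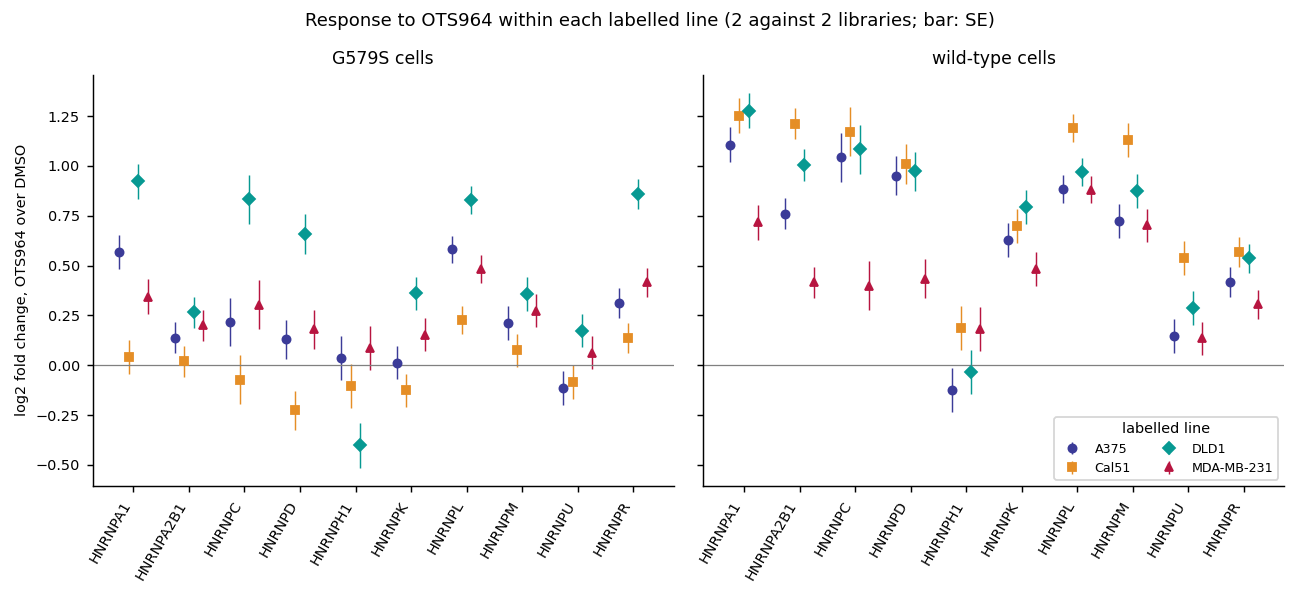
Log2 fold change of each hnRNP gene, OTS964 over DMSO, within each labelled line, in G579S cells (left) and wild-type cells (right); bars are SE from a fit of 16 groups with 2 libraries each. In G579S cells the DLD1 values reach 0.92 for HNRNPA1 and the Cal51 values lie between -0.23 and 0.23, while in wild-type cells all values but those of HNRNPH1 in A375 and DLD1 lie above 0.

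The difference of the 2 responses was tested as an interaction over all 32 libraries, and 8 of the 10 genes responded less in G579S than in wild-type cells, where edgeR called 24.3% of all genes lower and 25.8% higher. The difference in log2 fold change, G579S minus wild-type, was -0.69 ± 0.10 for HNRNPA2B1 (SE; edgeR adjusted p = 3.4e-06), -0.66 ± 0.13 for HNRNPD (edgeR adjusted p = 0.00012) and -0.63 ± 0.08 for HNRNPM (edgeR adjusted p = 4.8e-07). The other 5 were HNRNPA1 (-0.62), HNRNPC (-0.61), HNRNPK (-0.55), HNRNPL (-0.45) and HNRNPU (-0.27). HNRNPR, at -0.03 ± 0.10 (edgeR adjusted p = 0.85), and HNRNPH1, at -0.15 ± 0.10 (edgeR adjusted p = 0.22), did not pass. With library totals the median of all genes moves by 0.42, and of the 8 only HNRNPA2B1 (-0.26) and HNRNPM (-0.20) remained lower while HNRNPU turned higher (0.16), as did HNRNPH1 (0.28) and HNRNPR (0.40). The same 8 were called without the 8 libraries labelled DLD1, at -0.77 to -0.32.

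The genotypes were also compared under DMSO. In MDA-MB-231 edgeR called 0 of the 10 genes (7.3% of all genes were called); 4 passed an unadjusted p under 0.05 and DESeq2 called 1, HNRNPR. In A375 HNRNPU alone was called, with 907 and 937 CPM in G579S cells, against 1149.6 and 1145 CPM in wild-type cells, a log2 difference of -0.32 ± 0.08 (SE; edgeR adjusted p = 0.020; 5.38% of all genes were called lower), and it was not called when any 1 of the 4 libraries was left out. In Cal51, 7 genes were lower in G579S cells, where 6.73% of all genes were called lower. HNRNPR was the furthest, with 202 and 221 CPM in G579S cells, against 338 and 335 CPM in wild-type cells, a difference of -0.67 ± 0.07 (edgeR adjusted p = 4e-06). The others were HNRNPU (-0.48), HNRNPH1 (-0.42), HNRNPD (-0.40), HNRNPM (-0.38), HNRNPA2B1 (-0.37) and HNRNPK (-0.34). The 2 Cal51 G579S libraries differed most of all replicate pairs; without replicate 1 of them 6 genes were called and HNRNPR was at -0.61, and without replicate 2 of them 8 were called and HNRNPR was at -0.73. In the pair labelled DLD1, 6 genes were lower in G579S cells (26.4% of all genes were called lower), led by HNRNPD with 215 and 210.2 CPM, against 409.5 and 457 CPM in the libraries labelled wild-type (-1.03 ± 0.10; edgeR adjusted p = 4.1e-08), and HNRNPR (-0.96 ± 0.07; edgeR adjusted p = 2e-09). That contrast rests on the libraries whose markers went against their label, so genotype and cell identity cannot be told apart in it.

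Of the 34 transcripts, 26 held at least 5% of their gene's TPM in some group, and 7 stayed under 1% in every group. HNRNPA2B1 came almost wholly from 1 transcript (99.6% or more in every library), the one without the short second exon that gives the B1 form. HNRNPA1 came mostly from the transcript without exon 8, which held 87.5% to 97.7% of its TPM. Tested over all genes with several matched transcripts (edgeR's diffSpliceDGE, Simes method), the split changed with OTS964 in 0 of the 10 genes in wild-type cells, where 4.68% of 7052 genes were called and 1 of the 10 passed an unadjusted p under 0.05. HNRNPD came nearest (adjusted p = 0.20), and its adjusted p was 0.047 without MDA-MB-231 wild-type OTS964 replicate 1. In G579S cells HNRNPR was called (edgeR adjusted p = 0.00018), where 0.0993% of all genes were. That call came from its transcript NM_001102398, which held 2.63% and 1.53% of the gene's TPM in the A375 G579S OTS964 libraries and 4.94% and 7.19% in the DLD1 G579S OTS964 libraries, and was listed at 0 in the other 28 libraries. It was lost without the DLD1 libraries (edgeR adjusted p = 0.86) and with a filter of at least 10 reads in 8 libraries (edgeR adjusted p = 0.86).

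The segments printed above sum the transcripts that share a piece of exon. The share with the segment, in percent of the TPM of the transcripts with and without it, was compared within lines by an exact two-sided permutation test (1296 permutations, smallest possible p = 0.00154) for 6 segments in 2 genotypes, and p-values were adjusted over these 12 tests by the Benjamini-Hochberg method. Leaving out a line or a library lowers the number of permutations and raises the smallest possible p. A call lost in that way therefore need not reflect a smaller difference. The 6 segments were picked after the transcript shares had been seen, and the 2 genotypes' differences were not tested against each other.

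HNRNPD transcripts held the early cassette exon less often with OTS964 in both genotypes by this test, while the usage test over all genes did not call HNRNPD (adjusted p = 1 in G579S cells and 0.20 in wild-type cells). In G579S cells the share was 44.0%, 71.7% and 92.6% (lowest, median and highest of 8 libraries) with OTS964, against 79.7%, 82.1% and 94.7% with DMSO, and lower in all 4 lines. The mean difference was -14.5 percentage points (exact permutation, adjusted p = 0.0062). It was widest in DLD1 G579S cells, with 49.8% and 44.0% with OTS964, against 80.6% and 81.1% with DMSO, and it was -8.03 points without that line (exact permutation, adjusted p = 0.037). In wild-type cells the share was 66.3%, 71.1% and 91.2% with OTS964, against 82.6%, 86.5% and 89.6% with DMSO, a difference of -10.7 points (exact permutation, adjusted p = 0.0148). It was lower in 3 of 4 lines, with 68.0% and 67.4% in A375 OTS964 libraries, against 85.4% and 86.8% with DMSO, but 91.2% and 89.4% in MDA-MB-231 OTS964 libraries, against 89.6% and 89.6% with DMSO. Without the libraries labelled DLD1 wild-type it was -10.6 points and no longer passed (exact permutation, adjusted p = 0.074).

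The late cassette exon of HNRNPD moved the same way by less. Its share averaged 37.3% ± 4.3 with OTS964 and 41.7% ± 4.2 with DMSO in G579S cells (SD, n = 8 each), a difference of -4.47 points (exact permutation, adjusted p = 0.0093). In wild-type cells it averaged 37.6% ± 3.1 with OTS964 and 41.0% ± 2.7 with DMSO (SD, n = 8 each), a difference of -3.44 points (exact permutation, adjusted p = 0.0062). The direction held in all 4 lines of either genotype. Without the DLD1 libraries of the genotype the differences were -2.55 points in G579S cells and -3.25 points in wild-type cells (exact permutation, adjusted p = 0.044 and 0.037).

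HNRNPR transcripts with the 9 extra bases took a larger share with OTS964 in G579S cells, 9.68%, 24.3% and 30.5% (lowest, median and highest of 8), against 3.65%, 13.4% and 16.4% with DMSO. Both OTS964 libraries lay above both DMSO libraries in all 4 lines, and the difference was 10.2 points (exact permutation, adjusted p = 0.0062; 7.99 points and 0.037 without DLD1 G579S). In wild-type cells the share averaged 11.2% ± 3.2 with OTS964 and 10.3% ± 3.3 with DMSO (SD, n = 8 each), and the difference of 0.87 points did not pass (exact permutation, adjusted p = 0.50).

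For HNRNPM, NM_005968, which keeps the inner stretch of exon 6, was compared with NM_031203, which lacks it; the predicted transcript XM_005272479, with 2.83% to 12.4% of the gene's TPM, was left out of the share. NM_005968 took 48.7% ± 5.4 of the TPM of this pair with OTS964 and 44.9% ± 4.0 with DMSO in wild-type cells (SD, n = 8 each), a difference of 3.80 points (exact permutation, adjusted p = 0.028; 4.29 points and 0.044 without the libraries labelled DLD1). In G579S cells it took 51.0% ± 11.7 with OTS964 and 45.6% ± 9.2 with DMSO, a difference of 5.48 points (SD, n = 8 each; exact permutation, adjusted p = 0.029), and 4.06 points without DLD1 G579S (exact permutation, adjusted p = 0.17). The share was higher with OTS964 in 3 of 4 G579S lines, while in MDA-MB-231 G579S cells it was 42.0% and 42.4% with OTS964, against 43.2% and 43.3% with DMSO. The wild-type call was lost (exact permutation, adjusted p = 0.053 to 0.12) without Cal51 DMSO replicate 1, Cal51 OTS964 replicate 2, DLD1 DMSO replicate 1 or 2, or DLD1 OTS964 replicate 2. The G579S call was lost (exact permutation, adjusted p = 0.063 to 0.074) without A375 DMSO replicate 1 or 2 or Cal51 OTS964 replicate 1. For exon 8 of HNRNPA1 the differences were -0.83 points in G579S cells and 0.09 points in wild-type cells, and for the end of HNRNPU exon 1 they were 2.35 points and -0.83 points; none of these 4 passed. The HNRNPA1 one in G579S cells passed without Cal51 DMSO replicate 1 or MDA-MB-231 OTS964 replicate 2, and the HNRNPU ones passed without A375 G579S OTS964 replicate 2 and without MDA-MB-231 wild-type OTS964 replicate 2.

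**Figure D5:**
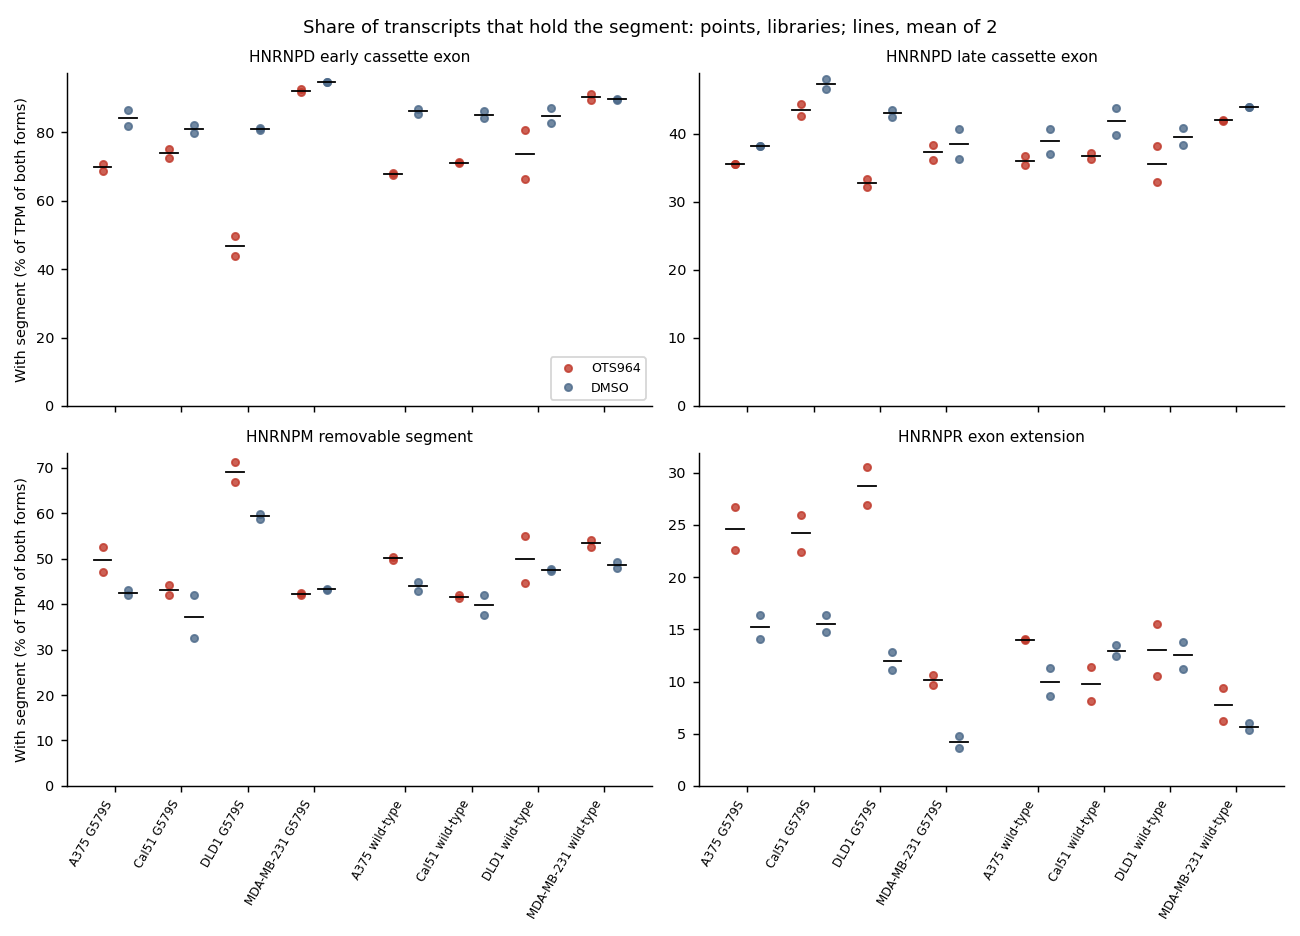
Share of the TPM of the compared transcripts (those with and those without the segment) that lies on transcripts with it, in percent, in all 32 libraries, with OTS964 (red) left of DMSO (blue) in every labelled line and genotype; points are libraries and short lines are means of 2. The early HNRNPD exon falls furthest in DLD1 G579S cells, to 49.8% and 44.0%, and the HNRNPR share lies higher with OTS964 in all 4 G579S lines.

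For context, a list of 25 other hnRNP family genes was examined, all of which passed the filter on low counts. In wild-type cells 15 of them rose and 3 fell across lines, with a median log2 fold change of 0.34, where 28.4% of all genes were called higher and 30.7% lower. In G579S cells 5 rose and none fell, with a median of 0.16, where 1.26% of all genes were called higher. The largest rises among those called were those of PCBP1, HNRNPA0 and HNRNPH2. PCBP1, a KH-domain protein that binds C-rich RNA, stood at 577, 1759.7 and 2819.7 CPM (lowest, median and highest of 8) in wild-type OTS964 libraries, against 295, 495 and 708 CPM in wild-type DMSO libraries, a change of 1.72 ± 0.14 (SE; edgeR adjusted p = 1.1e-07). HNRNPA0, an intronless member of the A group, changed by 1.69 ± 0.16 (edgeR adjusted p = 4e-07) and HNRNPH2 by 1.69 ± 0.14 (edgeR adjusted p = 1.6e-07). The 3 that fell were HNRNPA1L2 (-1.17 ± 0.18), the PTB-family splicing repressor PTBP3 (-0.81 ± 0.18) and CELF1 (-0.62 ± 0.18), which binds GU-rich elements; their medians were 4.76, 12.3 and 42.2 CPM in wild-type OTS964 libraries, against 11.8, 23.3 and 61.8 CPM in wild-type DMSO libraries. In the interaction the log2 fold change was lower in G579S than in wild-type cells for 9 of the 25 and higher for 3. Of all genes, 24.3% were called lower and 25.8% higher. A higher value there can also come from a smaller fall in G579S cells.

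As a description, the mean levels of the 16 groups were compared between genes. Among the 10, Pearson's r of log2 CPM over the 16 group means lay between 0.30 (HNRNPA1 with HNRNPH1) and 0.94 (HNRNPC with HNRNPK and HNRNPA1 with HNRNPM, for example). All 8 lowest values were pairs with HNRNPH1. Outside both lists, the 5 genes of 4952 with the most similar pattern to the mean of the 10 were KHDRBS1 (r = 0.98), DHX9 (0.97), HSPD1 (0.96), H2AX (0.96) and H1-10 (0.96). The groups share libraries and scaling, and the treatment moves many genes at once, so these values carry no test.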

How the data were processed

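RNA of 4 cell lines was measured in 32 libraries, grouped by title into 16 groups of 2. The authors deposited 1 table per library with transcript length, effective length, estimated counts and TPM for 87398 RefSeq-style identifiers, per the file headers. The deposited estimated counts are not whole and not normalized; the deposited TPM are scaled by the authors to length and library total. The sources used here do not give the quantification tool. Per the submitters' processing notes the builds were GRCm38 and mm10, both of mouse, although the identifiers matched human genes. Transcripts were matched to genes through RefSeq (GRCh38.p14) and GENCODE 29 tables: 42587 identifiers matched (48.73%), among them 36272 of 36585 curated coding ones (99.14%) and 6315 of 31064 predicted ones (20.33%). Unmatched identifiers were not used here.

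Estimated counts were added up per gene and then rounded. edgeR 4.0.16 in R 4.3.3 was run with TMM scaling, its low-count filter by group (14319 genes) and the quasi-likelihood F test, with Benjamini-Hochberg adjustment over all genes and a threshold of 0.05. Contrasts across lines had the line as a block, and contrasts within lines came from 1 fit of 16 groups with 16 residual degrees of freedom. TMM factors averaged 0.768 ± 0.0504 in wild-type OTS964 libraries, 1.04 ± 0.0632 in G579S OTS964 libraries, 1.12 ± 0.0258 in wild-type DMSO libraries and 1.12 ± 0.0364 in G579S DMSO libraries (SD, n = 8 each). Segment coordinates and sequences are those of GENCODE 29, and each segment's length equals the deposited length difference of its RefSeq transcripts.

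The scripts were tested on simulated counts. Alternatives were library totals, the size factors and the Wald test of DESeq2 1.42.0, no filter, counts from TPM scaled by length, each library left out, a replicate block, and no DLD1 libraries.

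All 10 genes, the 4 largest rises and falls among the called genes of a companion list (only 3 fell, and 1 of the rises is not reported here), transcripts with at least 5% of their gene's TPM in a group, and the 5 genes of mean log2 CPM of at least 5 with the most similar pattern were named by rule. The members and lists were chosen with earlier results of these data known, and the segments after their transcript shares were seen.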

Additional observations from a re-analysis of the deposited data

Results flagged for a closer look

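Of the 10 genes, 8 had a response to OTS964 that differed between the genotypes by the interaction test of edgeR across the 4 labelled lines, and each is listed for that reason. The difference in log2 fold change, G579S minus wild-type, was -0.62 for HNRNPA1, -0.69 for HNRNPA2B1, -0.61 for HNRNPC and -0.66 for HNRNPD. It was -0.55 for HNRNPK, -0.45 for HNRNPL, -0.63 for HNRNPM and -0.27 for HNRNPU. With library totals HNRNPA2B1 and HNRNPM alone were still called lower, HNRNPU was called higher, at 0.16, and the other 5 were not called, at -0.23 to -0.02. With 2 libraries a group, pairs that differed more than others could be named, but not which of the 2 deviated.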

How the results depend on the processing

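With library totals in place of TMM, the wild-type responses of HNRNPH1, HNRNPU and HNRNPR were -0.495, -0.27 and -0.09, those of HNRNPK and HNRNPU in G579S cells -0.016 and -0.108, and the differences (G579S minus wild-type) of HNRNPH1, HNRNPU and HNRNPR 0.282, 0.162 and 0.404. That scaling gave 808 genes called in G579S cells instead of 373, 5 members in the difference (3 higher and 2 lower, against 8 lower with TMM), 4 in MDA-MB-231 wild-type cells (2 higher and 2 lower, against 8 higher) and 1 instead of 2 in MDA-MB-231 G579S cells. DESeq2 called 6 members and 1779 genes in G579S cells across lines, and 1 member each in Cal51 G579S cells and between genotypes in MDA-MB-231 under DMSO. Counts from TPM scaled by length put HNRNPU in G579S cells at -0.001. The replicate block called 0 members and 0 genes in G579S cells across lines and 1 member in MDA-MB-231 G579S cells. Same-numbered libraries did not deviate together (correlations of -0.035 to 0.068 between their deviations, 0 of 8 pairs above 0.1), so this pairing rests on a number alone.

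Without the DLD1 G579S libraries, 1 member and 35 genes were called in G579S cells, HNRNPH1 stood at 0.002 and HNRNPU at -0.049, and transcript usage there called 0 members, as it did with a filter of 10 reads in 8 libraries. Without the DLD1 wild-type libraries the difference for HNRNPR was 0.000. Without the DLD1 libraries of the genotype, the early HNRNPD exon was at -10.6 points in wild-type cells and the HNRNPM segment at 4.06 points in G579S cells. The causes were not tested.

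Leaving out 1 library at a time gave 9 members in wild-type cells each time and 8 in the difference each time. In G579S cells it gave 2 to 6 members and 101 to 1656 genes, the highest of both without Cal51 G579S DMSO replicate 2, with HNRNPU at -0.017 to 0.029; the difference for HNRNPR was -0.078 to 0.011. Within lines it gave 1 to 2 members in A375 G579S, 0 to 1 in Cal51 G579S and in MDA-MB-231 G579S cells, and 0 between genotypes in A375 under DMSO. Transcript usage in wild-type cells gave 0 to 1 members. The segments ranged from -0.286 to 0.474 points (HNRNPA1, wild-type), -0.963 to -0.695 (HNRNPA1, G579S), 2.5 to 5.11 (HNRNPM, wild-type), 4.3 to 6.65 (HNRNPM, G579S), -1.49 to -0.175 (HNRNPU, wild-type) and 1.4 to 3.29 (HNRNPU, G579S). In fits that leave 1 library in a group, that library is assumed to vary like the other groups. Of 148 counts and segment differences under alternatives other than leaving out 1 library, 131 were taken as kept. For segment differences this meant the same direction and side of the threshold, and for counts a value within 1.5 times. Direction was not compared for counts. In wild-type cells across lines, 6 members higher and 2 lower with library totals thus counted as kept beside 9 higher with TMM.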
